A study of Homo sapiens with 9 samples.

Results

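The genes described here are the matrix metalloproteinases (MMP), the membrane-bound ADAM proteases, the secreted ADAMTS proteases and ADAMTS-like (ADAMTSL) proteins, and the tissue inhibitors of metalloproteinases (TIMP). They were chosen by symbol, as every gene whose symbol is exactly one of these 5 stems plus a number. The rule matched 72 of the 60683 genes listed, and 43 of the 72 reached a sum of 10 counts across the 9 libraries and were tested, among 22672 genes tested in all. These were 10 of 22 MMP genes, 15 of 22 ADAM genes, 11 of 19 ADAMTS genes, 3 of 5 ADAMTSL genes and 4 of 4 TIMP genes. mRNA was measured by RNA-seq in Hep3B cells, a human liver cancer line, after 24 hours in 3 groups of 3 cultures. The groups were vehicle (DMSO) at 20% O2, vehicle at 1% O2, and 32-134D, a small-molecule inhibitor of the hypoxia-inducible factors HIF-1 and HIF-2, at 1% O2. The effect of 32-134D was measured under hypoxia alone, as no group received it at 20% O2.

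Proteases of these families hold a zinc ion in the active site and are made as inactive precursors. MMPs cut collagens and other matrix proteins, ADAMs release the outer part of membrane proteins such as growth factors, cytokines and Notch receptors, and ADAMTS proteases cut proteoglycans, procollagens and von Willebrand factor. TIMPs bind the active site and block it, and ADAMTSL proteins resemble the accessory part of ADAMTS proteins without a protease domain. In liver, stellate cells are a known source of ADAMTS13 and TIMP1. Since a culture is measured as a whole, fewer cells making an mRNA and less mRNA per cell cannot be told apart in any value given here.

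Total counts ran from 6013980 in replicate 2 of vehicle at 20% O2 to 40549699 in replicate 1 of vehicle at 1% O2. Replicate 3 of 32-134D stood apart from the other libraries of its group, at a chi-square statistic over its degrees of freedom of 36.4 and 32.5 against replicates 1 and 2, which differed from each other by 2.0. Other pairs within a group ran from 1.62 to 12.0, so no library was a copy of another. In both vehicle groups replicate 1 differed most from the rest. At 20% O2 it gave 6.21 and 12.0 against replicates 2 and 3, which differed from each other by 1.62. In vehicle at 1% O2 the values were 7.9, 11.8 and 2.48 in the same order. All 8 hepatocyte markers examined were tested, with a summed level of 16600 to 18000 CPM at 20% O2, 11600 to 14500 CPM in hypoxic vehicle and 11200 to 16500 CPM with 32-134D. Of these, APOB fell 11.1-fold in hypoxia and rose 8.68-fold with 32-134D, with means of 4486, 405.4 and 3519 CPM. AFP also fell in hypoxia, while ALB, APOA1, TTR, FGB, SERPINA1 and HNF4A were not called there. ALB had means of 9283, 9535 and 8114 CPM. With 32-134D, TTR and FGB were called lower, at 9.79 and 6.86 CPM in replicate 3, and ALB, AFP, APOA1, SERPINA1 and HNF4A were not called. The part of APOB in the results was not tested. CA9, a HIF-1 target, rose by 4.38 on the log2 scale at 1% O2 and fell by 3.36 with 32-134D.

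The zinc site is the catalytic center of these proteases, and its coding bases are shown for that reason. In each member's longest coding transcript in GENCODE version 29 (GRCh38), the encoded protein was searched for a run of 11 codons that reads histidine, glutamate, 2 of any kind, histidine, 2 of any kind, glycine or asparagine, 2 of any kind, and histidine. The run was present in 10 of 10 tested MMP genes, 10 of 15 ADAM genes, 11 of 11 ADAMTS genes, 0 of 3 ADAMTSL genes and 0 of 4 TIMP genes. ADAM11, ADAM18, ADAM22, ADAM23 and ADAM32 lacked it. The 33 bases are given on the coding strand with the 3 histidine codons, which hold the zinc, in capitals. They lie in coding exons at chr14:22843283-22843315 (+) for MMP14, chr10:133271880-133271912 (-) for ADAM8, chr15:58627881-58633225 (-) across exons 9 and 10 for ADAM10, chr3:64651148-64654369 (-) across exons 8 and 9 for ADAMTS9, chr5:65300116-65329394 (-) across exons 9 and 10 for ADAMTS6, and chr21:26841143-26841867 (-) across exons 3 and 4 for ADAMTS1.
MMP14: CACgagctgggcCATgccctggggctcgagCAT
ADAM8: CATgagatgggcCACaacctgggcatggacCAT
ADAM10: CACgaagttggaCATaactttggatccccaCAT
ADAMTS9: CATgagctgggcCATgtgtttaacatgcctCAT
ADAMTS6: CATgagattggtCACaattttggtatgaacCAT
ADAMTS1: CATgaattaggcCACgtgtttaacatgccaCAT
The eighth codon is glycine (ggg, ggc, gga or ggt) in MMP14, ADAM8, ADAM10 and ADAMTS6, and asparagine (aac) in ADAMTS9 and ADAMTS1.

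Levels of different genes were compared as CPM per kilobase of exon, where CPM is the count relative to the library size after scaling by the TMM method. MMP14, a membrane-bound collagenase that also activates the gelatinase MMP2, was the highest member in every group, at 58.3, 57.5 and 61.0 CPM per kb in vehicle at 20% O2, vehicle at 1% O2 and 32-134D. In vehicle at 20% O2 it was followed by MMP15 at 26.9, TIMP2 at 26.6, ADAM9 at 23.7 and ADAM10 at 12.3 CPM per kb. This order depends on the length used, which joins all annotated exons of a gene, 16168 bases for ADAM10 and 4419 for MMP15. In CPM alone MMP14, at 260.3, was followed by ADAM10 at 198.1, ADAM9 at 164.1, TIMP2 at 149.8 and MMP15 at 118.7. The members under 1 CPM in every group numbered 12 of 43, and the other 31 held every hypoxia call. The gelatinases MMP2 and MMP9 and the collagenases MMP1, MMP8 and MMP13 were all below the count minimum.

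**Figure D1:**
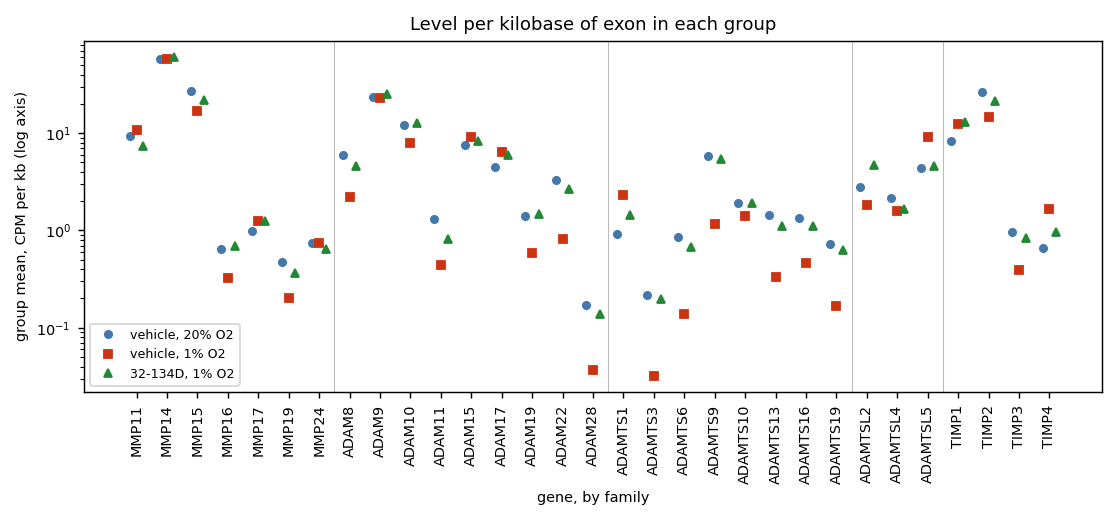
Mean level of each of the 31 members with a group mean of at least 1 CPM, in CPM per kb of exon on a log axis, with circles for vehicle at 20% O2, squares for vehicle at 1% O2 and triangles for 32-134D at 1% O2 (means of 3 libraries each). MMP14 lies highest in all 3 groups, at 57.5 to 61.0 CPM per kb, and the squares lie lowest for most ADAM and ADAMTS genes.

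The first comparison, vehicle at 1% O2 against vehicle at 20% O2, asked which of these mRNAs responded to hypoxia. In it, 17 of the 43 members fell and 4 rose, with a fold change above 1.5 and an FDR below 0.05 in edgeR's quasi-likelihood test. Among all genes tested, 20.3% fell and 19.5% rose, so that 49.0% of all calls were higher (34.5% when total library sizes replaced TMM, with 3 members that rose and 20 that fell). The median log2 fold change was -0.61 over the members and 0.001 over all genes tested. Most of the genes that fell were in the ADAMTS and ADAM families, which held the most members tested. There, 6 of 11 ADAMTS genes fell and 1 rose, with a median of -1.49. Of the ADAM genes 6 of 15 fell and 0 rose, with a median of -0.61, close to that of all members. Of the MMP genes, 3 of 10 fell and 0 rose, and the TIMP genes divided into 2 that rose and 2 that fell. Among the 31 members with the zinc site 13 fell and 1 rose, and among the 12 without it 4 fell and 3 rose. Their median log2 fold changes were -0.578 with the site and -0.74 without it.

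The second comparison, 32-134D against vehicle at 1% O2, asked how the inhibitor changed the same mRNAs in hypoxic cells. Here 18 members rose and 4 fell, while 16.2% of all genes tested rose and 13.7% fell, so that 54.2% of all calls were higher (72.0% with total library sizes, with 21 members that rose and 3 that fell). The median log2 fold change was 0.56 over the members and -0.012 over all genes tested. In the ADAMTS family 7 of 11 genes rose and 1 fell, with a median of 1.45, and in the ADAM family 7 of 15 rose and 1 fell, with a median of 0.67. The MMP genes gave 2 that rose and 0 that fell among 10, with a median of 0.022. Both comparisons use the libraries of vehicle at 1% O2, so they are not independent of each other. Without replicate 3 of 32-134D, 5 members rose and 18 fell in hypoxia, and 17 rose and 5 fell with 32-134D.

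**Figure D2:**
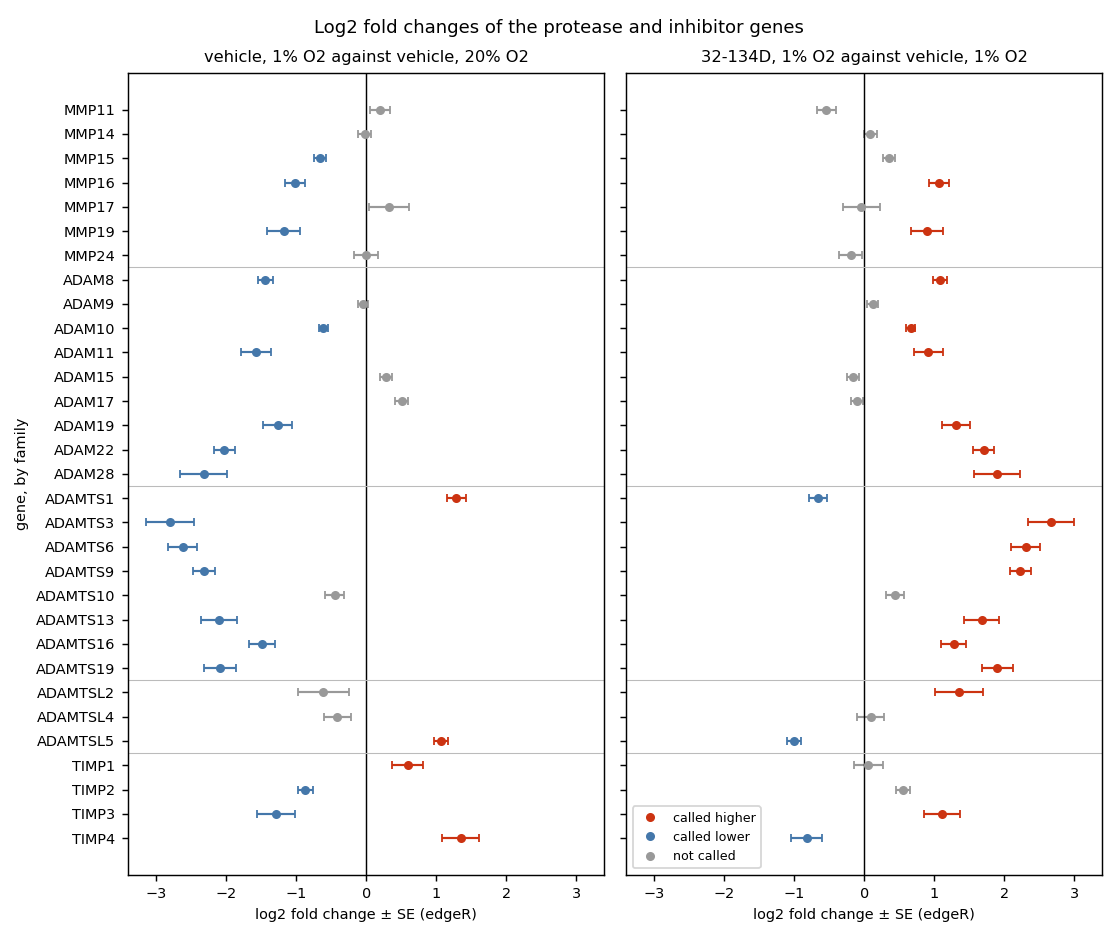
Log2 fold change (horizontal axis) with its SE from edgeR for the 31 members with a group mean of at least 1 CPM, for vehicle at 1% O2 against vehicle at 20% O2 (left) and 32-134D against vehicle at 1% O2 (right), with red for genes called higher, blue for genes called lower and grey for genes not called. In the left panel 17 genes are blue and 4 red, and in the right panel 16 are red and 3 blue.

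The largest responses were in the ADAMTS family. ADAMTS9, which cuts the proteoglycan versican, stood at 49.3, 67.2 and 69.1 CPM in vehicle at 20% O2, at 12.0, 12.96 and 12.3 CPM in vehicle at 1% O2, and at 50.8, 50.8 and 73.0 CPM with 32-134D. All hypoxic vehicle libraries were below all others, and the 32-134D libraries overlapped those at 20% O2. ADAMTS9 fell 4.98-fold in hypoxia (log2 fold change -2.32 ± 0.15 SE, FDR = 1.08e-08) and rose 4.68-fold with 32-134D (2.23 ± 0.15, FDR = 4.05e-08). ADAMTS6, a relative of the fibrillin-binding ADAMTS10, stood at 7.31, 7.07 and 7.57 CPM at 20% O2, at 1.06, 1.23 and 1.31 CPM in hypoxic vehicle, and at 7.004, 6.29 and 4.25 CPM with 32-134D. It fell 6.16-fold in hypoxia (-2.62 ± 0.21, FDR = 6.9e-08) and rose 4.94-fold with the inhibitor (2.30 ± 0.20, FDR = 4.34e-07), where each library lay above those of hypoxic vehicle and below those at 20% O2. ADAMTS3, which processes procollagen and helps to activate VEGFC, stood at 1.65, 1.57 and 1.49 CPM at 20% O2, at 0.186, 0.330 and 0.173 CPM in hypoxic vehicle, and at 1.39, 1.72 and 1.10 CPM with 32-134D. Its fitted decline in hypoxia was the largest among the 43 members, 6.99-fold (-2.81 ± 0.34, FDR = 5.98e-06), and with 32-134D it rose 6.34-fold (2.67 ± 0.33, FDR = 9.81e-06). The hypoxic vehicle libraries did not overlap the others.

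ADAMTS13, the protease that cuts von Willebrand factor, stood at 8.53, 6.75 and 9.49 CPM at 20% O2, at 2.89, 1.41 and 1.42 CPM in hypoxic vehicle, and at 7.15, 6.67 and 4.98 CPM with 32-134D. It fell 4.29-fold in hypoxia (-2.10 ± 0.25, FDR = 5.19e-06) and rose 3.20-fold with 32-134D (1.68 ± 0.25, FDR = 5.48e-05). The groups at 1% O2 did not overlap. ADAMTS19 stood at 4.23, 3.77 and 3.74 CPM at 20% O2, at 0.875, 0.660 and 1.18 CPM in hypoxic vehicle, and at 3.43, 2.96 and 3.93 CPM with 32-134D. It fell by 2.09 on the log2 scale (SE 0.23) and rose by 1.90 (SE 0.22), with no overlap between hypoxic vehicle and either other group. ADAMTS16 showed the same order of groups, at 6.53, 9.42 and 7.45 CPM, then 2.09, 3.02 and 3.11 CPM, then 6.81, 6.29 and 6.58 CPM. Its log2 fold changes were -1.49 ± 0.18 and 1.28 ± 0.18. Summed over the 11 tested ADAMTS genes, the level was 94.5 to 119.5 CPM at 20% O2, 42.5 to 45.1 CPM in hypoxic vehicle and 96.0 to 118.2 CPM with 32-134D.

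ADAMTS1 went the other way. This protease, which cuts aggrecan and versican and has the same asparagine at the zinc site as ADAMTS9, stood at 5.23, 6.75 and 7.60 CPM at 20% O2, at 15.6, 16.9 and 16.1 CPM in hypoxic vehicle, and at 10.9, 9.76 and 9.88 CPM with 32-134D. The 3 groups did not overlap. It rose 2.44-fold in hypoxia (1.29 ± 0.14, FDR = 1.41e-06) and fell 1.58-fold with 32-134D (-0.66 ± 0.12, FDR = 0.000459). The second call was lost with total library sizes (-0.48) and with at least 10 counts required in every library (-0.57), both under the fold threshold. ADAMTS10 moved as ADAMTS6 did but within the fold threshold, with means of 10.9, 8.10 and 11.02 CPM in vehicle at 20% O2, vehicle at 1% O2 and 32-134D.

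**Figure D3:**
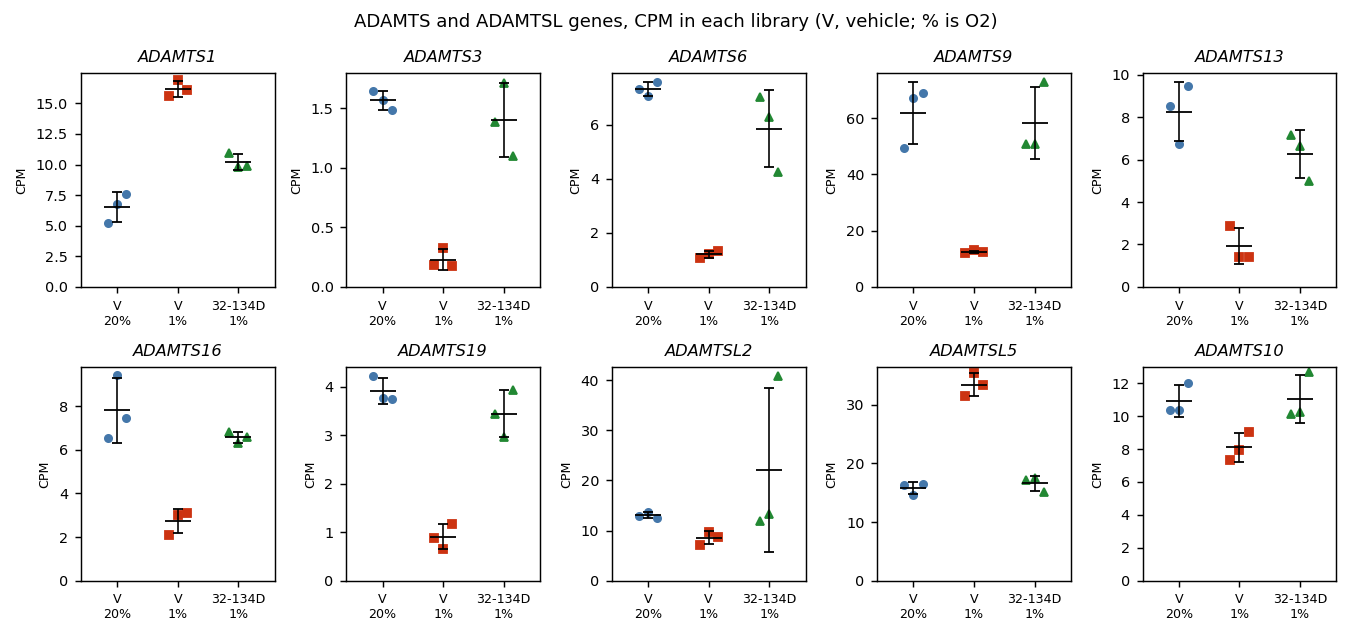
CPM in each library (points) with the mean and SD of the 3 libraries of a group (black bars) for 8 ADAMTS and 2 ADAMTSL genes, on linear axes from 0, with vehicle at 20% O2 on the left, vehicle at 1% O2 in the middle and 32-134D at 1% O2 on the right of each panel. Hypoxic vehicle lies lowest in 8 panels and highest for ADAMTS1 and ADAMTSL5, and 1 library of 32-134D lies far above the others for ADAMTSL2, at 40.8 CPM.

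Of the ADAMTSL genes, 1 rose and 0 fell in hypoxia. ADAMTSL5 stood at 16.4, 14.6 and 16.5 CPM at 20% O2, at 31.5, 35.4 and 33.5 CPM in hypoxic vehicle, and at 17.2, 17.5 and 15.1 CPM with 32-134D, so that hypoxic vehicle lay above both other groups. It rose 2.09-fold in hypoxia (1.06 ± 0.10, FDR = 3.39e-07) and fell 2.01-fold with 32-134D (-1.004 ± 0.10, FDR = 7.56e-07). ADAMTSL2, a microfibril-associated protein, stood at 12.9, 13.7 and 12.6 CPM at 20% O2, at 7.13, 9.76 and 8.78 CPM in hypoxic vehicle, and at 11.9, 13.3 and 40.8 CPM with 32-134D. The third of these is the library that stood apart. With it the gene was called higher with 32-134D (1.35 ± 0.35, FDR = 0.00492), and without it the change was 0.57, under the fold threshold. ADAMTSL4, a fibrillin-binding protein, was not called and had means of 13.8, 10.2 and 10.8 CPM.

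In the ADAM family, 4 of 10 genes with the zinc site and 2 of 5 without it fell in hypoxia. ADAM10, the protease that releases the outer part of Notch and of the amyloid precursor protein, was the most abundant of those that fell. It stood at 194.5, 195.2 and 204.6 CPM at 20% O2, at 131.0, 128.9 and 128.5 CPM in hypoxic vehicle, and at 199.2, 199.6 and 217.2 CPM with 32-134D. These groups at 1% O2 did not overlap, although the change was small, 1.53-fold lower in hypoxia (-0.61 ± 0.07, FDR = 1.54e-06) and 1.59-fold higher with 32-134D (0.67 ± 0.07, FDR = 1.16e-06). ADAM8, a sheddase of leukocytes and tumor cells, stood at 27.6, 28.3 and 29.01 CPM at 20% O2, at 9.33, 10.9 and 11.2 CPM in hypoxic vehicle, and at 23.1, 22.9 and 20.5 CPM with 32-134D. The 3 groups lay apart, and ADAM8 fell 2.71-fold (-1.44 ± 0.10, FDR = 2.19e-08) and rose 2.12-fold (1.09 ± 0.10, FDR = 6.39e-07). ADAM19, which can release neuregulin, stood at 9.03, 11.93 and 11.95 CPM, then 5.09, 5.00 and 3.60 CPM, then 9.67, 9.29 and 15.3 CPM in the same order of groups. It fell by 1.26 (SE 0.21) in hypoxia and rose by 1.31 (SE 0.20) with the inhibitor, on the log2 scale.

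ADAM22 and ADAM11, which lack the zinc site and act as adhesion receptors in neurons, fell as well. ADAM22 stood at 34.2, 42.2 and 45.5 CPM at 20% O2, at 9.83, 10.4 and 9.85 CPM in hypoxic vehicle, and at 35.9, 36.7 and 24.9 CPM with 32-134D. The hypoxic vehicle libraries lay below all others, and the gene fell 4.07-fold (-2.02 ± 0.15, FDR = 2.75e-08) and rose 3.26-fold (1.70 ± 0.14, FDR = 2.97e-07). ADAM11 stood at 5.45, 7.07 and 6.39 CPM, then 2.07, 2.03 and 2.18 CPM, then 4.42, 4.68 and 2.61 CPM. It fell by 1.57 on the log2 scale (SE 0.22) and rose by 0.91 (SE 0.21), and the 3 groups did not overlap. ADAM28, a protease known from lymphocytes, stood at 2.08, 0.942 and 1.83 CPM, then 0.318, 0.330 and 0.380 CPM, then 0.964, 1.58 and 1.33 CPM. Its log2 fold changes were -2.32 ± 0.34 and 1.89 ± 0.33, with hypoxic vehicle below both other groups.

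The other abundant ADAMs did not share this pattern. ADAM9, a widely expressed sheddase, had means of 164.1 ± 14.6, 159.0 ± 4.56 and 172.6 ± 6.29 CPM (SD, n = 3) in vehicle at 20% O2, vehicle at 1% O2 and 32-134D, and log2 fold changes of -0.049 and 0.12 that did not pass the test. ADAM17, which releases TNF and ligands of the EGF receptor, had 46.4, 46.0 and 51.3 CPM at 20% O2, 70.8, 65.3 and 68.8 CPM in hypoxic vehicle, and 60.6, 57.4 and 73.0 CPM with 32-134D. Its hypoxic libraries of both kinds lay above those at 20% O2, with a log2 fold change of 0.51 ± 0.09 (FDR = 0.000305) that stayed under the fold threshold. ADAM15 had means of 49.8, 60.5 and 54.2 CPM and a log2 fold change of 0.28 in hypoxia, also under it. ADAM17 shares 13.6% of its exonic bases with IAH1 and a further antisense gene.

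Of the MMP genes, MMP15, MMP16 and MMP19 fell in hypoxia. MMP15, a membrane-type MMP, stood at 115.0, 127.6 and 113.4 CPM at 20% O2, at 78.1, 79.2 and 67.8 CPM in hypoxic vehicle, and at 100.1, 102.1 and 85.1 CPM with 32-134D. The 3 groups lay apart. It fell 1.58-fold in hypoxia (-0.66 ± 0.09, FDR = 1.76e-05), and its higher level with 32-134D (0.35 ± 0.09, FDR = 0.00412) was under the fold threshold. MMP16, also membrane-bound, stood at 7.17, 7.22 and 9.12 CPM, then 3.92, 3.87 and 4.08 CPM, then 8.20, 7.64 and 9.05 CPM, and fell 2.02-fold and rose 2.09-fold with no overlap with hypoxic vehicle.

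MMP19, a secreted MMP, stood at 1.86, 2.67 and 2.04 CPM, then 0.875, 1.04 and 0.899 CPM, then 1.76, 1.95 and 1.46 CPM in the same order. It fell by 1.18 on the log2 scale (SE 0.24, FDR = 0.00069) and rose by 0.90 (SE 0.23, FDR = 0.00435), the latter not called in counts thinned to the smallest library (1.02, FDR = 0.0759). MMP19 shares 17.4% of its exonic bases with TMEM198B on the other strand, whose own means were 12.6, 3.70 and 9.56 CPM. The strand setting of the counting is not given in the sources used here, so reads of these genes may be mixed, and the part of TMEM198B in the MMP19 values was not tested.

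MMP14, the most abundant member, was not called in any comparison. It stood at 256.9, 266.9 and 257.0 CPM at 20% O2, at 262.8, 252.0 and 254.9 CPM in hypoxic vehicle, and at 245.3, 250.9 and 320.4 CPM with 32-134D, and the groups overlapped. The log2 fold changes were -0.020 ± 0.09 (FDR = 0.873) and 0.085 ± 0.09 (FDR = 0.474). MMP11, a secreted MMP that furin activates inside the cell, stood at 51.3, 46.5 and 48.6 CPM, then 55.1, 58.6 and 54.4 CPM, then 44.9, 42.9 and 27.02 CPM. All 32-134D libraries were below those of hypoxic vehicle, but the log2 fold change of -0.54 ± 0.14 (FDR = 0.00459) was under the fold threshold. MMP17, at 2.94 to 7.82 CPM over the 9 libraries, and MMP24, at 2.70 to 3.70 CPM, were not called.

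**Figure D4:**
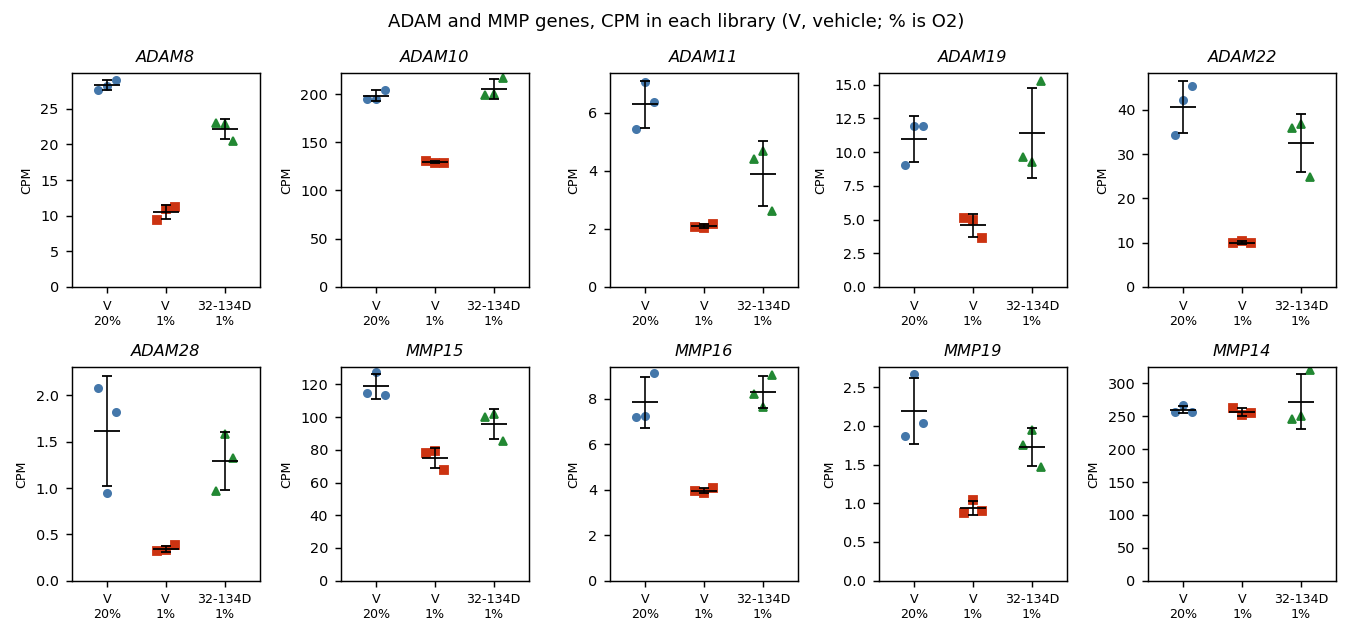
CPM in each library (points) with the mean and SD of the 3 libraries of a group (black bars) for 6 ADAM and 4 MMP genes, on linear axes from 0, with vehicle at 20% O2 on the left, vehicle at 1% O2 in the middle and 32-134D at 1% O2 on the right. Hypoxic vehicle lies below both other groups in 9 panels, and in the panel of MMP14 the groups overlap.

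The TIMP genes divided. TIMP2, which inhibits MMPs and also forms a complex with MMP14 that activates MMP2, stood at 140.2, 153.5 and 155.8 CPM at 20% O2, at 81.8, 84.1 and 80.2 CPM in hypoxic vehicle, and at 133.2, 131.3 and 96.3 CPM with 32-134D. It fell 1.83-fold in hypoxia (-0.87 ± 0.10, FDR = 5.18e-06). The 3 groups did not overlap, and the difference of 32-134D from hypoxic vehicle (0.56 ± 0.10, FDR = 0.000438) was under the fold threshold. It passed without replicate 3 of 32-134D (0.69), and also in DESeq2 (0.612), with total library sizes (0.741) and under several other settings. TIMP3, which binds the matrix and also inhibits ADAM17 and ADAMTS proteases, stood at 4.16, 4.87 and 4.44 CPM, then 2.17, 2.17 and 1.11 CPM, then 5.05, 3.74 and 2.84 CPM. It fell 2.45-fold in hypoxia (-1.29 ± 0.27, FDR = 0.000809) and rose 2.16-fold with 32-134D (1.11 ± 0.26, FDR = 0.0022), with hypoxic vehicle below both other groups.

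TIMP4 and TIMP1 were higher in hypoxia. TIMP4 stood at 1.36, 0.942 and 0.973 CPM at 20% O2, at 3.18, 2.55 and 2.59 CPM in hypoxic vehicle, and at 1.13, 1.82 and 1.83 CPM with 32-134D, with hypoxic vehicle above both other groups. It rose 2.55-fold (1.35 ± 0.26, FDR = 0.000487) and fell 1.77-fold (-0.82 ± 0.23, FDR = 0.00782), the latter not called without replicate 1 of 32-134D (-0.55). TIMP1, a weak inhibitor of membrane-type MMPs, stood at 12.5, 14.1 and 11.8 CPM, then 16.4, 20.7 and 20.2 CPM, then 15.1, 15.4 and 29.5 CPM. The vehicle groups did not overlap and TIMP1 rose 1.51-fold in hypoxia (0.59 ± 0.22, FDR = 0.0328), at the edge of the fold threshold. The call was lost under 5 other settings and without any of 5 single libraries, with values from 0.379 to 0.548, and in most of these the FDR also failed, at up to 0.156. With 32-134D it differed from hypoxic vehicle by 0.059 ± 0.20 (FDR = 0.839). Without replicate 3, the library that stood apart, the difference was -0.31 (FDR = 0.0156), under the fold threshold. The ratio of TIMP2 to TIMP1 in CPM per kb was 3.07, 2.97 and 3.62 at 20% O2, 1.37, 1.11 and 1.09 in hypoxic vehicle, and 2.41, 2.34 and 0.895 with 32-134D.

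**Figure D5:**
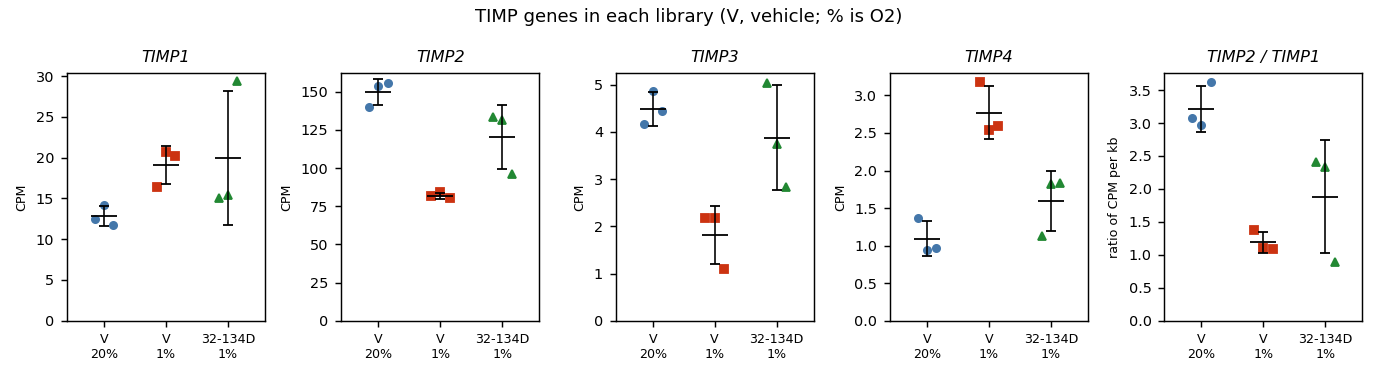
CPM of TIMP1, TIMP2, TIMP3 and TIMP4, and the ratio of TIMP2 to TIMP1 in CPM per kb, in each library (points) with the mean and SD of the 3 libraries of a group (black bars), on linear axes from 0, for vehicle at 20% O2, vehicle at 1% O2 and 32-134D at 1% O2 from left to right. TIMP2 and TIMP3 lie lowest and TIMP4 highest in hypoxic vehicle, and the ratio lies at 2.97 to 3.62 at 20% O2 and at 1.09 to 1.37 in hypoxic vehicle.

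TIMP1, TIMP3 and TIMP4 each lie inside a synapsin gene on the other strand, SYN1, SYN3 and SYN2. TIMP4 shares 10.3% of its exonic bases with SYN2, whose counts did not pass the test in either comparison. TIMP3 shares none with SYN3. SYN3 had means of 8.65, 1.38 and 5.51 CPM in vehicle at 20% O2, vehicle at 1% O2 and 32-134D and thus the same order of groups as TIMP3. TIMP2 shares 10.0% of its exonic bases with CEP295NL and an antisense gene, and CEP295NL had 0.236 to 0.827 CPM in the group means. The part of these neighbors in the TIMP values was not tested.

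The third comparison, 32-134D at 1% O2 against vehicle at 20% O2, asked what difference was left. In edgeR ADAMTS1 alone was called, at 1.54-fold higher (0.62 ± 0.14, FDR = 0.0104), and 0 members were called lower, while 3.0% of all genes tested were called higher and 0.516% lower. The median log2 fold change was -0.092 over the members, with a range from -1.93 to 0.83. In edgeR at an unadjusted p under 0.05, 7 members were lower and 4 higher. DESeq2 called 2 members higher and 1 lower. The second higher member was TIMP1 (0.662, FDR = 0.0222), which in edgeR stood at 0.65 ± 0.22 (FDR = 0.0752). In edgeR it passed with no filter and without replicate 1 or 2 of 32-134D. Leaving out either of these gives more weight to replicate 3, the library that stood apart, at 29.5 CPM against 15.1 and 15.4 CPM. The lower member was ADAM11, which in edgeR stood at -0.66 ± 0.20 (FDR = 0.0556). ADAM11 passed in edgeR with total library sizes (FDR = 0.0471) and with no filter (FDR = 0.0171). It also passed with at least 10 counts in every library (FDR = 0.0431) and without replicate 2 of 32-134D (FDR = 0.0423). With FDR alone, ADAM8 (-0.35, FDR = 0.0352) and MMP15 (-0.305, FDR = 0.0436) were lower than at 20% O2, and ADAM17 (0.40, FDR = 0.0137) and ADAMTS1 were higher. ADAMTS1 lost its call in thinned counts (0.45), without replicate 1 of vehicle at 20% O2 (0.49) and without replicate 1 of 32-134D (0.58).

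Among the 12 members under 1 CPM, ADAM32 and ADAMTS12 rose and ADAM18 fell with 32-134D. ADAM32, which lacks the zinc site and is known from the reproductive tract, had 4, 2 and 23 counts at 20% O2, 10, 4 and 8 in hypoxic vehicle, and 28, 32 and 19 with 32-134D. It rose by 1.85 on the log2 scale (SE 0.38, FDR = 0.00081), but not in counts thinned to the smallest library (FDR = 0.208). ADAM18, a relative expressed in testis, had 4, 1 and 13 counts, then 21, 10 and 9, then 2, 3 and 2, so that 32-134D lay below hypoxic vehicle by a ratio of 5.65, with a 95% counting interval of 2.50 to 14.9. This call, too, was lost in thinned counts (FDR = 0.101). ADAMTS12 had 3, 2 and 8 counts, then 3, 1 and 5, then 11, 7 and 7, and its call (1.45 ± 0.55, FDR = 0.0406) was lost in DESeq2 (1.56, FDR = 0.101), with no filter, with the replicate block, in thinned counts, and without any library of 32-134D or replicate 1 or 2 of vehicle at 1% O2, with log2 fold changes from 1.21 to 1.58. The others, ADAM20, ADAM21, ADAM23, ADAM33, ADAMTS4, ADAMTS7, MMP7, MMP25 and MMP26, were not called as reported. ADAM21 passed as higher in hypoxia under several other settings (1.32 to 1.65, FDR from 0.0188 to 0.0412). It also passed as lower with 32-134D without replicate 3 of that group (-1.47, FDR = 0.0104). ADAMTS4 passed as higher with 32-134D under several settings (1.33 to 2.17, FDR from 0.00519 to 0.0453). Counts of ADAM20, ADAM21 and ADAMTS7 are uncertain because near copies of these genes exist.

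The other 29 members had counts summing to at most 7 over the 9 libraries and were not tested, and 15 of them had no count in any library. They were ADAM2, ADAM5, ADAM6, ADAM7, ADAM12, ADAM29, ADAM30, ADAMTS2, ADAMTS5, ADAMTS8, ADAMTS14, ADAMTS15, ADAMTS17, ADAMTS18, ADAMTS20, ADAMTSL1, ADAMTSL3, MMP1, MMP2, MMP3, MMP8, MMP9, MMP10, MMP12, MMP13, MMP20, MMP21, MMP27 and MMP28. Their mRNA was not detectable, or nearly so, at this depth. Many share a place in the genome. The MMP cluster at chr11:102520508-102955734 (GRCh38) holds 9 members, of which MMP7 alone was tested, at 0.229 to 1.00 CPM. Among tested neighbors, ADAMTS13 and ADAMTSL2 lie 72.8 kb apart on chromosome 9. In hypoxia ADAMTS13 fell, and ADAMTSL2 had a log2 fold change of -0.61 that did not pass (FDR = 0.18), although it passed without replicate 3 of 32-134D (-0.615, FDR = 5.31e-05) and with only the vehicle groups (FDR = 0.000134).

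Promoters were taken from RefSeq (GRCh38.p14), from 250 bases before to 50 after the start site, for 28 member genes. The core of the sequence that HIFs bind is ACGTG or GCGTG, searched on both strands. A core stood in 13 of 29 member promoters (44.8%), against 48.4% of 35116 promoters of the same length. ACGTG alone stood in 20.7% of member promoters and 21.4% of all. Of the members that fell in hypoxia, 6 of 10 with a promoter had a core, of those that rose 1 of 3 (TIMP1), and of those not called 5 of 15. The call of TIMP1 in hypoxia was lost under several other settings, and ADAMTSL5 and TIMP4, which also rose, had no core. Bases upstream of the gene start in both RefSeq and GENCODE are shown for 3 members called in hypoxia. They show a decline with a core, a decline without one and a rise with one. They are printed in the direction of the gene with cores in capitals. They are chr5:65481921-65482170 (-) for ADAMTS6, chr10:133276869-133277118 (-) for ADAM8 and chrX:47582186-47582312 (+) for TIMP1.
ADAMTS6: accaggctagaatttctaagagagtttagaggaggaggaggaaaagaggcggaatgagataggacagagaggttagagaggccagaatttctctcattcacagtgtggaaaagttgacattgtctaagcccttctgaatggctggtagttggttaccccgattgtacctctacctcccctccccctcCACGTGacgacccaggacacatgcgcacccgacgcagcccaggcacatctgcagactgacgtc
ADAM8: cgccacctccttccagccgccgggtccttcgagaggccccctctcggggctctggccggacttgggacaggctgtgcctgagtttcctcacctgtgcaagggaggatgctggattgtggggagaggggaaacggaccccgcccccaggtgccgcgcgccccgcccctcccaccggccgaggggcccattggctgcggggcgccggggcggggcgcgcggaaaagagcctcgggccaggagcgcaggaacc
TIMP1: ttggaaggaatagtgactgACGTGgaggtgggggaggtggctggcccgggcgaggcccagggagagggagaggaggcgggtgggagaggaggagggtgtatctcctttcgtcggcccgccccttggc
The capitals in ADAMTS6 are 1 palindrome that reads as ACGTG on each strand, so its 2 cores overlap. A further core of TIMP1, GCGTG at 36 bases before the RefSeq start, lies outside the stretch shown. A match of these letters is no measure of binding.

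Genes that activate, inhibit or act beside these proteases were followed as a list of 43, of which 37 were tested. In hypoxia 4 rose and 7 fell, with a median log2 fold change of -0.041, and with 32-134D 8 rose and 3 fell, with a median of 0.12. These were 10.8% higher and 18.9% lower in hypoxia, against 19.5% and 20.3% of all genes, and 21.6% higher and 8.11% lower with 32-134D, against 16.2% and 13.7%. PLAU, the plasminogen activator urokinase, rose with 32-134D (1.78 ± 0.50, FDR = 0.00871) from 2.65, 3.35 and 2.52 CPM to 4.08, 4.11 and 21.5 CPM, and without the third of these the change was 0.55, under the fold threshold. PCSK5, a convertase that activates precursors, rose by 2.17 (SE 0.40) from 2.92, 3.44 and 3.04 CPM to 7.54, 7.67 and 27.5 CPM, and by 1.29 without that library. PLAU was also called higher than at 20% O2, by 2.02 (FDR = 0.0326), or by 0.79 without replicate 3 of 32-134D. That call was lost with only the groups compared (FDR = 0.0965) and without any library of vehicle at 20% O2 or replicate 1 or 2 of vehicle at 1% O2 (FDR from 0.0501 to 0.14). Also called higher there was VCAN, which encodes versican and had 8, 6 and 4 counts with 32-134D and 0 in all 6 vehicle libraries. VCAN reached the count minimum through the 32-134D libraries alone, so it could only be called higher. The same holds for its call against vehicle at 1% O2, which is among the 8 above, and no conclusion is drawn from either call.

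FURIN, the convertase that removes the propeptide of ADAMs and membrane-type MMPs, had means of 747.2, 440.3 and 614.8 CPM in vehicle at 20% O2, vehicle at 1% O2 and 32-134D. It fell by 0.76 on the log2 scale in hypoxia (SE 0.08, FDR = 6.65e-07), and the difference with 32-134D (0.48 ± 0.07) was under the fold threshold. BSG, which encodes the MMP inducer basigin, had means of 804.4, 1083 and 807.3 CPM, with differences of 0.43 ± 0.07 and -0.42 ± 0.07 that were both under it. RECK, a membrane-anchored inhibitor of MMPs, had means of 11.6, 9.59 and 9.93 CPM and did not pass in hypoxia (-0.26, FDR = 0.0572). PAPLN, which resembles ADAMTS proteins and carries inhibitor domains, fell by 1.58 (SE 0.16) and rose by 1.12 (SE 0.16). TSPAN10, a tetraspanin with a role in ADAM10 trafficking, fell by 1.41 (SE 0.20) and rose by 0.81 (SE 0.20). Of the other tetraspanins on the list, TSPAN5 went the other way, with log2 fold changes of 0.838 ± 0.148 in hypoxia and -0.835 ± 0.138 with 32-134D. TSPAN14, TSPAN15, TSPAN17 and TSPAN33 were not called in either comparison.

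Of 6 fibroblast markers 4 were tested, and their summed level was 36.4 to 39.7 CPM at 20% O2, 17.1 to 18.5 CPM in hypoxic vehicle and 35.5 to 43.4 CPM with 32-134D. PDGFRB made up most of it, with means of 27.2, 10.1 and 22.0 CPM. COL1A1 and COL1A2 also fell in hypoxia and rose with 32-134D. The rise of COL1A1 was under the fold threshold without replicate 3 of 32-134D (0.56), and that of COL1A2, at 0.378 CPM in hypoxic vehicle, was lost without any of 5 single libraries, as was its fall in hypoxia without replicate 3 of vehicle at 20% O2 (-1.02). The fall of COL1A1 in hypoxia was lost without replicate 3 of vehicle at 1% O2 (-0.697). LUM differed from these, with means of 2.43, 3.76 and 8.39 CPM, and was not called in hypoxia and rose with 32-134D. No fibroblast marker was at 0 in all libraries, but DCN and THY1 were below the count minimum. Of 5 endothelial markers 1 was tested, which was PECAM1, with means of 0.862, 0.211 and 0.860 CPM, and KDR, TEK and VWF were at 0 in every library. Of 5 leukocyte markers 3 were tested, with a summed level of 2.92 to 5.45 CPM and CD3E at 0. CD14 fell in hypoxia and rose with 32-134D, with means of 2.83, 1.21 and 2.31 CPM, while CSF1R was not called in hypoxia and fell with 32-134D, with means of 1.100, 1.47 and 0.898 CPM, and CD68 was not called in either. The part of the fibroblast genes in the results for the proteases was not tested.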

How the data were processed

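Whole-number read counts per Ensembl gene were deposited by the authors as 1 table for the 9 libraries, without normalization. Per the study's methods, reads were checked with FastQC, trimmed with Bbduk, mapped with STAR to an Ensembl 100 reference and counted with featureCounts. Tool versions and the strand setting are not given in the sources used here. The labels describe the cultures as biological replicates in 6-well plates. They name DMEM/F12 as the medium, and the study's methods high-glucose DMEM.

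Counts were scaled by TMM and fitted with edgeR 4.0.16 (quasi-likelihood test, R 4.3.3) in 1 model of the 3 groups. A gene was tested when its counts reached a sum of 10, and calls needed a Benjamini-Hochberg FDR below 0.05 over all 22672 genes and a fold change above 1.5. Adjusted p values throughout are from this fit unless DESeq2 1.42.0 is named. SEs are derived from the same fit. The common biological coefficient of variation was 10.5%. Total counts of 6013980 to 40549699 limit the precision for low genes, and counting intervals cover counting error only. The procedure was tested on simulated counts. Alternatives were DESeq2, other scalings, other filters and thresholds, only the groups compared, a replicate block, thinning, and leaving out each library.

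Positions, exonic lengths and coding sequences came from GENCODE version 29 (GRCh38), in which 22265 of the genes tested and 43 of 43 members were found, and promoters from RefSeq. The members and lists were chosen with earlier results of these data known. Every member called in any comparison is named with its values, with the value in every library where a group mean reached 1 CPM. Of the further list, the 3 largest changes of each of the first 2 comparisons with a group mean of at least 5 CPM are named, with RECK, FURIN and BSG, except that 1 gene is not reported here. Other genes were named after their values were seen.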

Additional observations from a re-analysis of the deposited data

How the results depend on the processing

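Of 44 calls of single members, 35 were kept under every alternative that tested them, other than the fold thresholds, and none changed sign. When each library had to reach 10 counts, 9 of the 44, of ADAM18, ADAM28, ADAM32, ADAMTS3, ADAMTS12 and TIMP4, were not tested. The 9 calls that were not kept included TIMP1 in hypoxia and ADAMTS1 against vehicle at 20% O2. The rest were ADAM18, ADAM32, ADAMTS1, ADAMTS12, ADAMTSL2, MMP19 and TIMP4 with 32-134D. Of these, ADAM18, ADAM32, ADAMTS12 and TIMP4 with 32-134D were also among those not tested with at least 10 counts in every library. The replicate numbers showed no sign of pairing. Deviations of same-numbered libraries correlated between -0.032 and 0.005, and those of differently numbered libraries between -0.017 and 0.037. These correlations span all genes tested, many with few counts, so they cannot exclude pairing. With a replicate block, 5 members rose and 17 fell in hypoxia, 17 rose and 4 fell with 32-134D, and 1 was higher and 0 lower against vehicle at 20% O2. Members called higher in hypoxia were 4, and 2 when each library had to reach 10 counts. Members called lower with 32-134D were 4, against 1 with that filter and 2 with a fold change above 2. Members higher with 32-134D than at 20% O2 were 1 as reported, 2 in DESeq2, 3 with no filter, 2 with no fold threshold, 0 with a fold change above 2 and 0 in thinned counts. Members lower in that comparison were 0 as reported, 1 in DESeq2, 1 with total library sizes, 1 with no filter, 1 when each library had to reach 10 counts, and 2 with no fold threshold. Leaving out each library gave 0 to 2 higher and 0 to 1 lower. Total library sizes moved the median log2 fold change of all genes to -0.209 in hypoxia and 0.171 with 32-134D, and the share of all calls that were higher from 49.0% to 34.5% and from 54.2% to 72.0%. In these fits 3 members rose and 20 fell in hypoxia, and 21 rose and 3 fell with 32-134D. Values that were not called and changed sign were MMP14 in hypoxia with no filter (0.008), and, when single libraries were left out, MMP14 (-0.048 to 0.213), ADAMTSL4 (-0.084 to 0.316) and TIMP1 (-0.314 to 0.287, and -0.042 without replicate 1 of hypoxic vehicle) with 32-134D, and ADAMTSL2 (-0.042 to 1.052) against vehicle at 20% O2. The cause of these changes was not tested.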
